A study of Homo sapiens with 2 samples.

Results

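Peaks of RUNX1 on the long arm of chromosome 1 were described in MCF10A, a cultured line of human breast epithelium whose parental cells do not form tumours. The members were chosen by position: a peak counted when its summit lay above 140 Mb on chromosome 1 (GRCh38), which held 830 of the 13591 peaks in the list (6.11%). The part of the same chromosome below 125 Mb, called the short arm here, held 699 peaks and served for comparison, and 0 summits lay between both limits. The arm was picked with its peak density and input level already known, so both are given as descriptions. It is called gained because MCF10A is known to carry extra material of this arm. Copy number itself was not measured here.

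The data came from chromatin immunoprecipitation followed by sequencing (ChIPseq), with 1 library from a RUNX1 antibody and 1 library of input DNA, the same kind of chromatin without immunoprecipitation. In both libraries the cells had their own RUNX1 deleted and carried a lentiviral RUNX1 gene that doxycycline switched on, at 1 µg/ml for 24 hours, so the protein measured came from the introduced gene. There were no replicates, and no test between samples was possible. All intervals given cover counting error only. The ChIP library kept 80338845 tags and the input library kept 87410774. A pileup is the number of extended ChIP tags over a summit. Fold enrichment is the pileup over the local background after adding 1 to each. The input level is that local background as a multiple of the genome average of 2.20 tags. In the list this background never fell below the genome average, so 1 is a floor of the input level and lower input does not show. The list reached down to a q value of 0.05.

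RUNX1 is the DNA-binding subunit of core binding factor and works together with its partner CBFB, which strengthens the hold on DNA. The complex recognises the letters TGTGGT and TGCGGT, and acts at promoters and at enhancers that can lie far from a gene. In epithelia RUNX1 is known for roles in lineage identity and differentiation. The long arm of chromosome 1 carries several gene clusters that matter in epithelium, among them the epidermal differentiation complex, and also arrays of small RNA genes.

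Sequences were read at promoters, the windows from 250 bp before to 50 bp after an annotated start (RefSeq, GRCh38.p14). The following stretches, of up to 101 bases around the peak summit where these fell inside the window, are shown because a peak summit and a RUNX motif lay together in them. They are written 5′ to 3′ in the direction of the gene, and capitals mark TGTGGT or TGCGGT, or their reverse complements ACCACA and ACCGCA.
DSTYK, minus strand, chr1:205211683-205211750: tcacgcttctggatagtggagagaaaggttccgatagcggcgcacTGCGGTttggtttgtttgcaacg
TADA1, minus strand, chr1:166876245-166876302: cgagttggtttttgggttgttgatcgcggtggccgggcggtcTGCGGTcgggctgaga
IL6R, plus strand, chr1:154405218-154405318: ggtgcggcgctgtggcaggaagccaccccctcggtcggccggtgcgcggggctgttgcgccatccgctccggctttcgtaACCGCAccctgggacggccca
CD55, plus strand, chr1:207321497-207321597: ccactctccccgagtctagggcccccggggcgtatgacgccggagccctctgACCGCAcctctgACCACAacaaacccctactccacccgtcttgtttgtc
NUP133, minus strand, chr1:229508344-229508444: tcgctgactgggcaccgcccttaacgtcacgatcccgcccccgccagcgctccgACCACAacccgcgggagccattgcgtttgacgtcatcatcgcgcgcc
ATP2B4, plus strand, chr1:203626656-203626756: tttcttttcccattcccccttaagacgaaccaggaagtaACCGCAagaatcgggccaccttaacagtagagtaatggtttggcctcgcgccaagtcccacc
IVL, plus strand, chr1:152908364-152908464: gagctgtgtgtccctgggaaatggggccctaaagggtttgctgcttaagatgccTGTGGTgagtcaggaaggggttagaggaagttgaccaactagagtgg
RABGAP1L, plus strand, chr1:174875361-174875461: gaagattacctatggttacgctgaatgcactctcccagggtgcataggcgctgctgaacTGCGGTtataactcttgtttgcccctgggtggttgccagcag
The promoter of S100A12, which had the third highest pileup among these windows, is shown beside them because it held a summit and none of these letters.
S100A12, minus strand, chr1:153375602-153375653: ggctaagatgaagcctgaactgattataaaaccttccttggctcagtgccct

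Density was the first comparison between the arms. The long arm was counted up to 248.937 Mb and held 7.62 peaks per Mb, against 5.59 on the short arm, a ratio of 1.36 (95% exact interval 1.23 to 1.51). Gene density differed little, with 8.93 protein-coding genes per Mb on the long arm and 8.70 on the short arm. Per protein-coding gene there were 0.853 peaks on the long arm and 0.642 on the short arm, a ratio of 1.33 (1.199 to 1.470). The density therefore exceeded that of the short arm per length and per gene alike. A summit inside the gene or within 5 kb of it was found for 302 of the 973 long arm protein-coding genes (31.0%, 95% Wilson interval 28.2 to 34.0) and for 288 of 1088 short arm genes (26.5%, 23.9 to 29.2). Over all protein-coding genes the share was 24.8%.

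The input level also differed between the arms. Its median at long arm peaks was 1.67 times the genome background (quartiles 1.38 and 2.09), and at short arm peaks 1.05 times. Only 2 of the 830 long arm peaks (0.241%) sat at the genome background, the floor of this measure, against 304 of the 699 short arm peaks (43.5%). The input level is a coarse number where few tags stand behind it. For 340 long arm peaks it equalled a whole number of scaled input tags (within 0.002 of a tag), with a median of 5 tags, and in the 488 other long arm peaks above background it had a median of 1.42, against 1.11 in the 151 such short arm peaks. The part of the input level in the density was not tested.

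Under stricter limits that count enrichment over input, the arms came close. With a fold enrichment of at least 5 there were 357 long arm and 375 short arm peaks, a ratio per Mb of 1.09 (0.942 to 1.27). At a fold of at least 8 there were 67 and 76, a ratio of 1.01 (0.717 to 1.42). With each pileup divided by its relative input level and held to a minimum of 11 tags, the ratio was 1.06 (0.944 to 1.19). That minimum was the lowest pileup among short arm peaks at the genome background. Nearly all of those peaks therefore passed by construction, so this limit was not neutral between the arms. With the pileup at least 8 times the input level, an alternative chosen after seeing the data, the order turned, with 166 long arm and 230 short arm peaks and a ratio of 0.828 (0.674 to 1.02). The share of protein-coding genes with a peak of at least 5-fold enrichment was 16.8% on the long arm and 17.1% on the short arm. The higher density of the long arm thus lay among peaks of low fold enrichment.

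**Figure D1:**
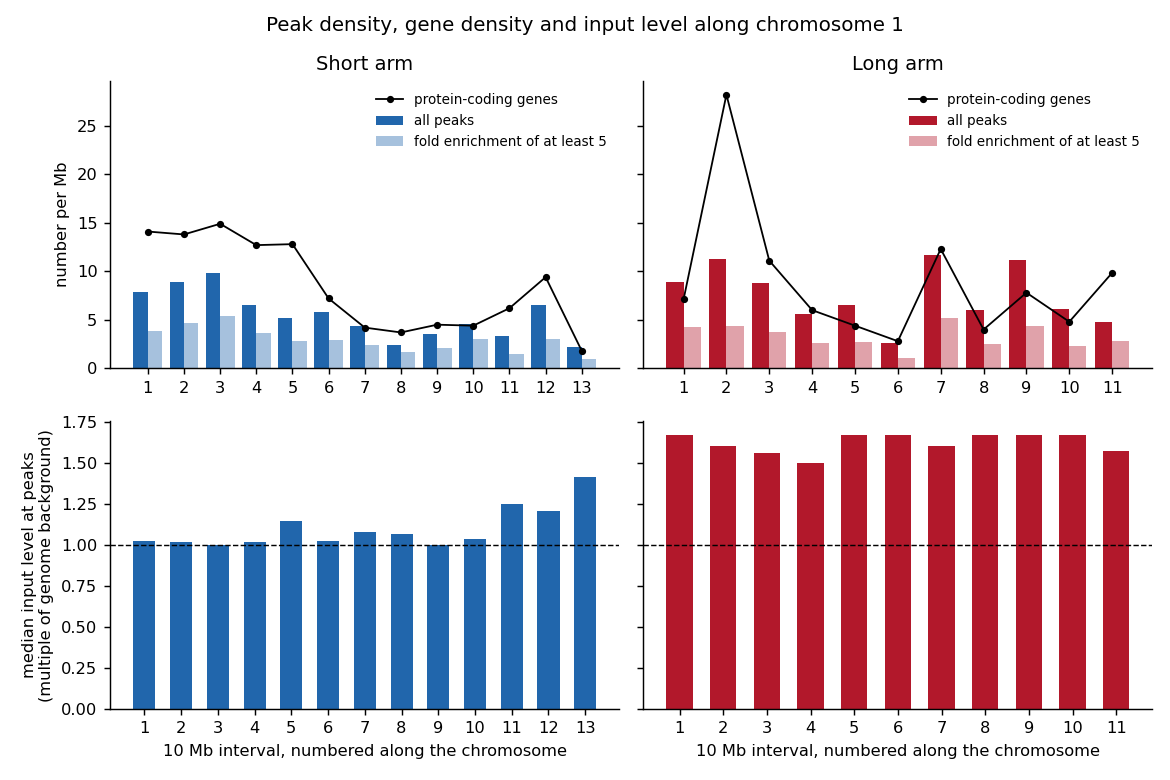
Upper panels show peaks per Mb (dark bars), peaks of at least 5-fold enrichment per Mb (pale bars) and protein-coding genes per Mb (line) in 10 Mb intervals of each arm, and lower panels show the median input level at the peaks, with the genome background as a dashed line. The median input level was 1.498 to 1.67 in each of the 11 long arm intervals and 1 to 1.41 in the 13 short arm intervals; the last interval of each arm is shorter than 10 Mb.

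Along the long arm the density was uneven while the input level was not. The interval from 200 to 210 Mb held the most peaks, 117 beside 123 protein-coding genes, and the interval from 190 to 200 Mb the fewest, 26 beside 28 genes. The interval from 150 to 160 Mb, where the epidermal differentiation complex lies, had 113 peaks beside 282 genes and so the fewest peaks per gene, 0.401. The most per gene were found from 210 to 220 Mb, with 60 peaks beside 40 genes. The median pileup differed little among the intervals, from 20 to 22.5 tags.

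At the limits of the rule the values did not jump in pileup. The last 3 short arm peaks, starting at 121270033, 121349666 and 121396297, had pileups of 17, 17 and 35 tags and input levels of 1.48, 1.41 and 1.56. The first 3 long arm peaks, starting at 143630554, 143729294 and 143735892, had pileups of 20, 20 and 14 tags and input levels of 1.19, 1.51 and 1.27. These 3 short arm peaks thus had input levels as high as the 3 across the gap. The peaks before them varied: the one starting at 120850708 was at the genome background, and the one starting at 120529676 was at 2.09.

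Long arm peaks had more tags but less enrichment than short arm peaks. The median pileup was 21 tags (quartiles 18 and 27, range 12 to 100) on the long arm and 18 tags (15 and 22, range 11 to 60) on the short arm. The median fold enrichment was 4.70 (3.92 and 5.86) on the long arm and 5.13 (4.37 and 6.51) on the short arm. A pileup of at least 40 tags was reached by 55 long arm peaks (6.63%) and 21 short arm peaks (3.004%). A fold enrichment of at least 10 was reached by 28 long arm peaks (3.37%, 2.34 to 4.83) and 35 short arm peaks (5.01%, 3.62 to 6.88), where the share in the whole list was 3.82%. The order of the arms was therefore opposite for pileup and for fold. The median −log10 q was 6.37 and 6.11, and the median width 149.5 bp and 159 bp, so these differed little.

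**Figure D2:**
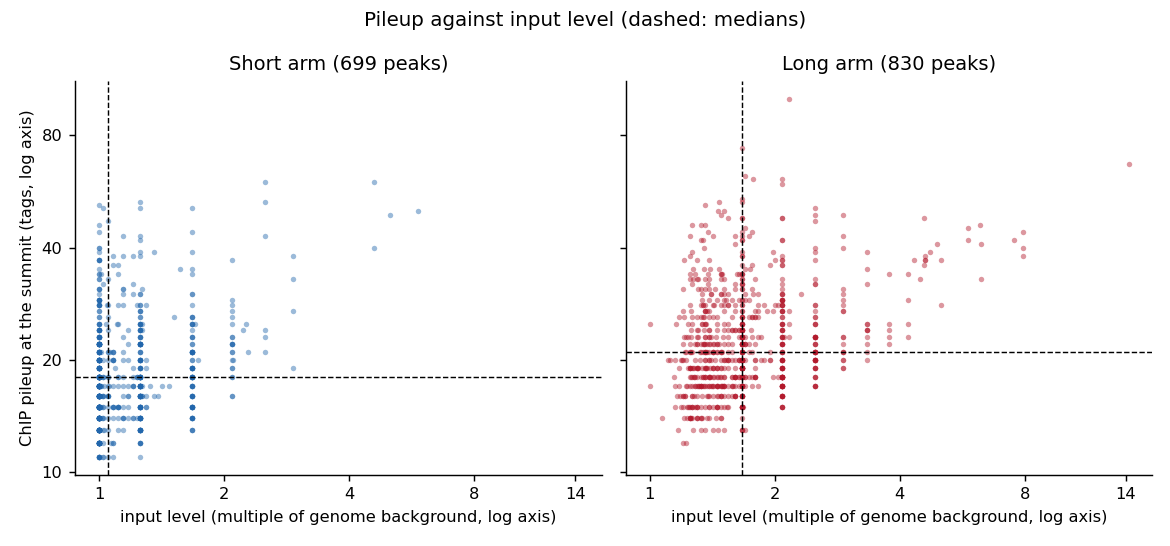
Each point is a peak, with the input level on the x axis (multiple of the genome background, log axis) and the ChIP pileup at the summit on the y axis (tags, log axis), for the short arm and the long arm; dashed lines are the medians. Long arm points lie to the right, with 2 of 830 at the genome background against 304 of 699 on the short arm, and the column-like bands are whole numbers of input tags.

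The strongest sites, chosen by q value, stood well above their input, which follows from that choice. The peak with the highest −log10 q of the arm lay at chr1:181159589-181160066, 66.9 kb from IER5, an immediate early gene. Its pileup was 100 tags (95% Poisson interval 81.4 to 122), its input level 4.76 tags and its fold enrichment 17.5, and it ranked 9 in the whole list. The second, at chr1:228141775-228142169, lay inside GUK1, which encodes guanylate kinase, with 74 tags (58.1 to 92.9) and a fold of 16.04. The interval of the first and that of the second overlapped. Both lay above the pileups of 43 to 53 tags found in 13 of the 20 strongest peaks. Those pileups have intervals too, and the interval at 53 tags (39.7 to 69.3) reached into that of the second.

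**Figure D3:**
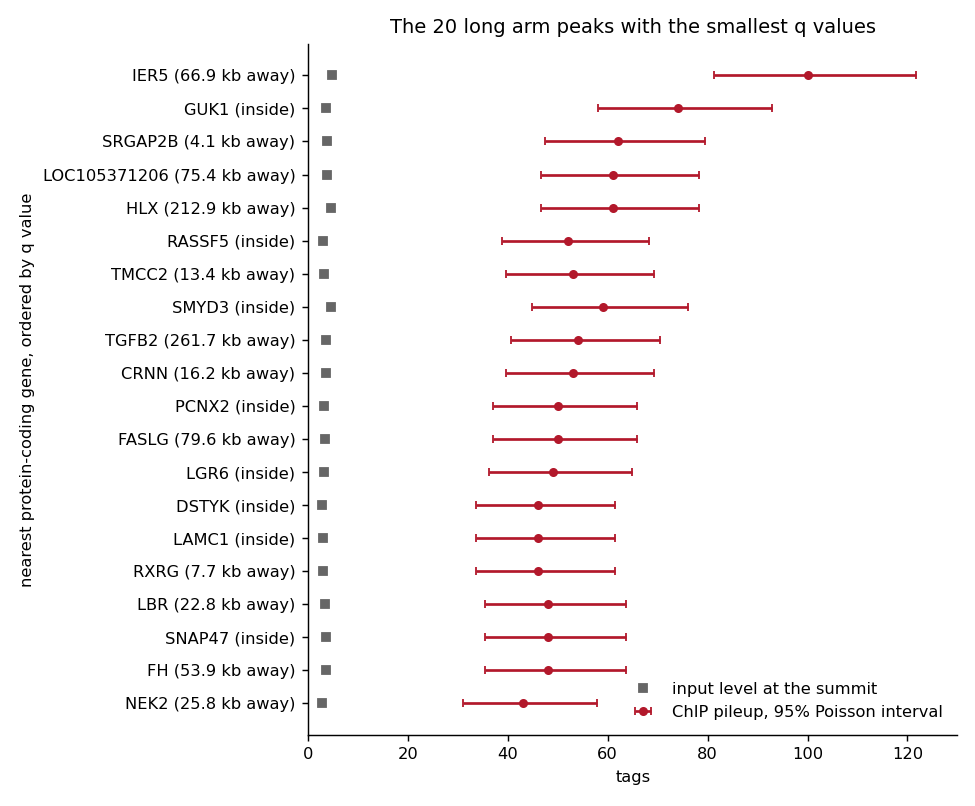
The 20 long arm peaks with the smallest q values, by their nearest protein-coding gene, with the ChIP pileup and its 95% Poisson interval (circles and bars) and the input level (squares) in tags. The pileups run from 43 to 100 tags. Every interval lies above its own input level, which follows from the choice by q value.

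Most of the other strong sites lay at a distance from coding genes. The third, at chr1:144882914-144883385, had 62 tags and lay 4.11 kb outside SRGAP2B, a partial human copy of SRGAP2, so reads there may be shared between copies. The fourth, at chr1:144077162-144077890, had 61 tags and lay 75.4 kb from the nearest coding gene, LOC105371206. The fifth, at chr1:221097730-221098103, also had 61 tags and lay in a long noncoding RNA gene, 213 kb from HLX, a homeobox gene. Another of this kind was chr1:218706032-218706557, with 54 tags, inside another noncoding RNA gene and 262 kb from TGFB2, a ligand of the TGF-beta pathway.

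Further distant sites among the 20 lay nearest to genes of differing roles. CRNN, which encodes the epidermal protein cornulin, lay 16.2 kb from a peak of 53 tags, and TMCC2 lay 13.4 kb from another of 53 tags. FASLG, the ligand of the death receptor FAS, lay 79.6 kb from a peak of 50 tags. RXRG, a retinoid X receptor, lay 7.70 kb from a peak of 46 tags. The remaining ones were LBR, the lamin B receptor (48 tags, 22.8 kb), FH, fumarate hydratase of the citric acid cycle (48 tags, 53.9 kb), and NEK2, a mitotic kinase (43 tags, 25.8 kb). Nearest is a matter of position alone, and which gene a distant site serves was not measured.

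The strong sites inside genes were led after GUK1 by SMYD3, a methyltransferase gene, with 59 tags at chr1:246428609-246428899. RASSF5, a Ras effector, had 52 tags and a fold of 13.3 at chr1:206513937-206514244. PCNX2 had 50 tags, and LGR6, a receptor for R-spondins known from epithelial stem cells, had 49 tags. SNAP47 had 48 tags. LAMC1, the laminin gamma 1 chain of the basement membrane, had 46 tags and a fold of 11.98. DSTYK, a dual kinase, was the 1 gene of the 20 with a summit within 1 kb of its start: the summit, at 46 tags and a fold of 12.4, lay 2 bp from the annotated start, on the motif shown above.

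Places of all 830 summits followed the same lines. A summit lay inside a protein-coding gene for 365 peaks (44.0%, 40.6 to 47.4), against 389 short arm peaks (55.7%, 51.9 to 59.3). The arms had similar numbers of genes per Mb, but the share of each arm that lies inside genes was not measured. A further 101 long arm summits lay up to 5 kb outside, 207 between 5 and 50 kb, and 157 (18.9%) more than 50 kb from any coding gene. Of those outside coding genes, 144 lay inside a gene of another class. Exons and introns could not be told apart with the gene table used. A start was within 1 kb for 68 long arm summits (8.19%, 6.51 to 10.3), 7.30% of short arm summits and 5.37% of summits on other chromosomes. The intervals of the arms overlapped.

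Of the 302 long arm genes with a peak, 189 had 1, 60 had 2 and 29 had 3. RASSF5 (Gene ID 83593) and RABGAP1L (Gene ID 9910), a GTPase-activating protein gene, had the most, with 8 each. RASSF5 spans 81.9 kb and RABGAP1L 836 kb, so RASSF5 was the denser. The 8 pileups at RASSF5 ran along the gene as 22, 52, 35, 24, 17, 27, 15 and 17 tags. At RABGAP1L they ran from 14 to 33 tags. SRGAP2B had 7 peaks, and RPS6KC1, IL6R and ATP2B4 had 6 each. IL6R, the receptor of interleukin 6, is 64.1 kb long, and its best peak had 33 tags but lay on an input level of 2.504.

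Peaks also stood close to each other. With summits no more than 10 kb apart put together, the 830 peaks formed 626 groups, of which 482 were single peaks and 12 held at least 4. The short arm had 556 groups, 443 single peaks and 6 of at least 4. The largest group outside RNA genes held 6 peaks over 19.3 kb, from summit 157399565 to summit 157418869, with no coding gene within 5 kb. Its pileups were 24, 45, 17, 17, 31 and 32 tags, and the nearest coding gene was FCRL5, an immune receptor gene 94.5 to 114 kb away. Groups of 4 lay at IVL, LAMB3, CACNA1E and from S100A12 to S100A8. These groups were picked out after their values were seen.

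Gene lists were then set beside the share for all long arm coding genes, 31.0%. Epithelial adhesion and basement membrane genes had the highest share, 10 of 13 (76.9%, 49.7 to 91.8), and olfactory receptor genes the lowest, 1 of 58 (1.72%, 0.305 to 9.14). Those were the only lists, of the 10 shown, whose intervals did not reach the share of all long arm genes. The lists were chosen with earlier results of these data known, so these shares and intervals are descriptions and test nothing. Gene length was not matched in these counts.

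**Figure D4:**
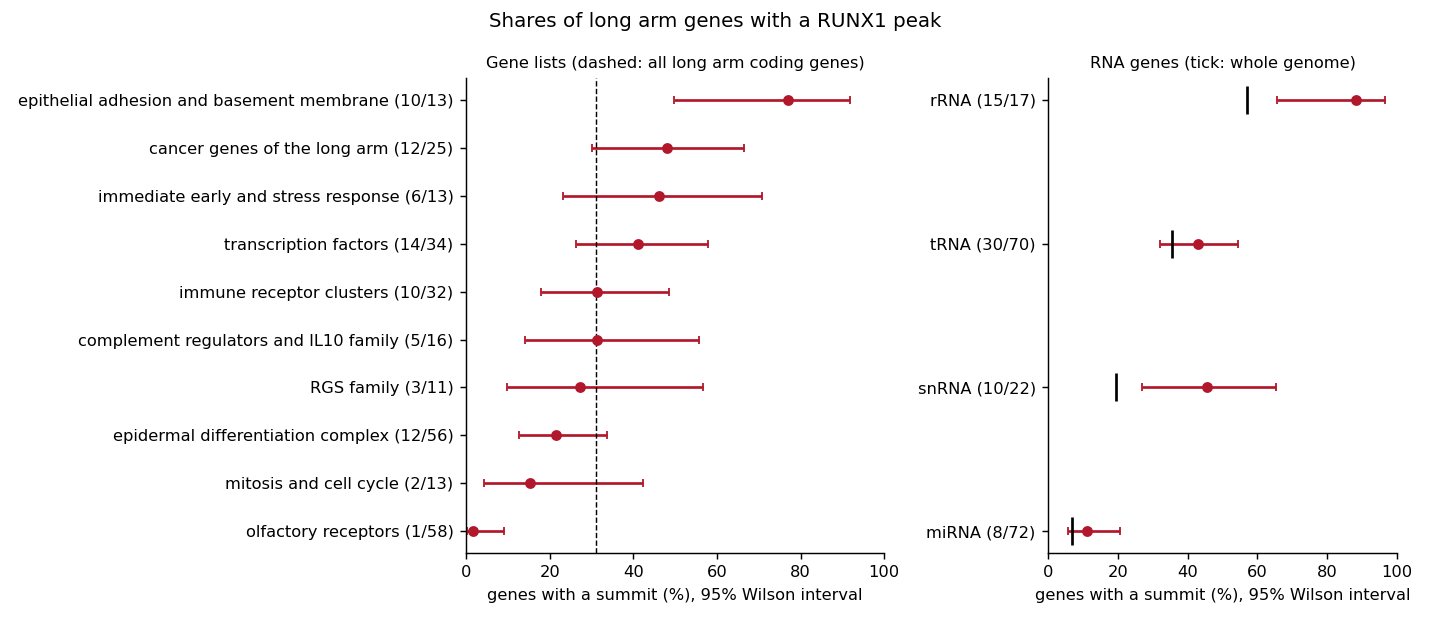
Left, the share of genes in each list with a summit in the gene or within 5 kb, with 95% Wilson intervals and the share for all long arm coding genes as a dashed line; right, the shares for RNA genes of the long arm (within 1 kb, or 5 kb for miRNA), with the share over the genome as a tick. Adhesion genes stand highest at 76.9% and olfactory receptor genes lowest at 1.72%, and the share of 5S rRNA genes was 88.2%.

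Among adhesion genes, LAMC1 and LAMB3, which encode laminin chains of the basement membrane, were covered repeatedly. LAMC1 had 5 peaks of 16 to 46 tags. LAMB3, the beta 3 chain, had 4 peaks of 21 to 34 tags. The best peak of LAMB3 reached a fold of 8.18 over an input level of 1.49, below the fold of 11.98 at LAMC1. NECTIN4, a cell adhesion molecule, had 3 peaks of up to 37 tags (26.1 to 51.0) and a fold of 9.37. ADAM15, a membrane protease, also reached 37 tags but with a fold of 5.83. PKP1, a desmosome plaque protein, had 24 tags, EFNA1, an ephrin, 22 and the mucin MUC1 19.

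The epidermal differentiation complex, the cluster of cornified envelope and S100 genes, had a peak at 12 of 56 genes (21.4%, 12.7 to 33.8). The intervals do not separate this share from that of all long arm genes. S100A12, an S100 calcium-binding protein, led with 39 tags (27.7 to 53.3) and a fold of 8.56. S100A2, known from basal epithelium, had 2 peaks of 22 and 24 tags. IVL, which encodes involucrin of the cornified envelope, had 4 peaks of 18, 23, 19 and 19 tags with folds of 3.55, 3.68, 3.57 and 4.84. IVL was therefore covered by several weak peaks rather than a strong one. LCE3A had 21 tags, and S100A8 and LORICRIN 20 each, all 3 on an input level of 2.504 and with folds of 3.22 to 3.38. S100A4 and S100A5 shared 1 peak of 22 tags.

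Of the transcription factor genes, 14 of 34 had a peak (41.2%). LMX1A had 32 tags, TBX19 31, and ESRRG, an orphan nuclear receptor, 29. ELF3, an epithelial ETS factor, had 1 peak of 29 tags (19.4 to 41.6) and a fold of 6.87. BATF3 had a best pileup of 22 tags and ZBTB7B one of 20. All of these lay below the 20 strongest peaks of the arm.

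Cancer genes of the arm had a peak at 12 of 25 (48.0%, 30.0 to 66.5). LMNA, which encodes lamins A and C, led with 42 tags (30.3 to 56.8) and a fold of 10.9. BCL9, a coactivator of beta-catenin, had 31 tags. MDM4, an inhibitor of p53, had 30 tags and DDR2, a collagen receptor, 29. IKBKE had 3 peaks of up to 26 tags, and PARP1 had 24 tags at its start. LMNA was the 1 gene of this list whose best peak had a fold above 10.

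Immediate early and stress response genes had a peak at 6 of 13. TGFB2 had 32 tags, PLA2G4A 22, PHLDA3 20, ATF3 17, and CAPN2 and DUSP10 16 each. Mitosis and cell cycle genes had a peak at 2 of 13, NUF2, of the kinetochore, with 28 tags and CKS1B with 18. The CKS1B peak lay outside CKS1B, inside its neighbour SHC1. The NUF2 peak also covered the start of RGS5, so NUF2 and RGS5 cannot be told apart here. Of the RGS family, regulators of G protein signalling, 3 of 11 had a peak: RGS2 34 tags with a fold of 9.14, RGSL1 33 tags and RGS5 28 tags.

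Immune receptor clusters had a peak at 10 of 32 genes, with the highest, 32 tags, shared by CD1B and CD1C. FCGR3A followed with 26 tags, at a peak that also lay 66 bp from the tRNA gene TRN-GTT1-1. Then came CD244 and CD1A with 20 tags, CD247 with 19 and FCGR3B with 18. Complement regulators and the IL10 family had a peak at 5 of 16, namely IL19 with 27 tags, CD55 24, C4BPB 22, CR1 21 and CD46 15. Both shares, 31.2% and 31.2%, were near that of all long arm genes. FCGR3A and FCGR3B are near-identical copies, so their values are uncertain.

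Promoters gave the sequence behind the peaks. A peak overlapped 40 of 1132 long arm promoter windows (3.53%, 2.61 to 4.78), against 27 of 1248 on the short arm (2.16%, 1.49 to 3.13) and 1.87% over all windows. The 40 windows belonged to 37 genes and 36 peaks, since some genes have several starts and some starts share a peak. The letters TGTGGT or TGCGGT, on either strand, stood in 20 of the 40 windows (50%, 35.2 to 64.8) and in 222 of the 1092 long arm windows without a peak (20.3%, 18.0 to 22.8). Over all promoter windows the share was 19.0%. It was 44.4% in short arm windows with a peak and 57.8% in those on other chromosomes.

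**Figure D5:**
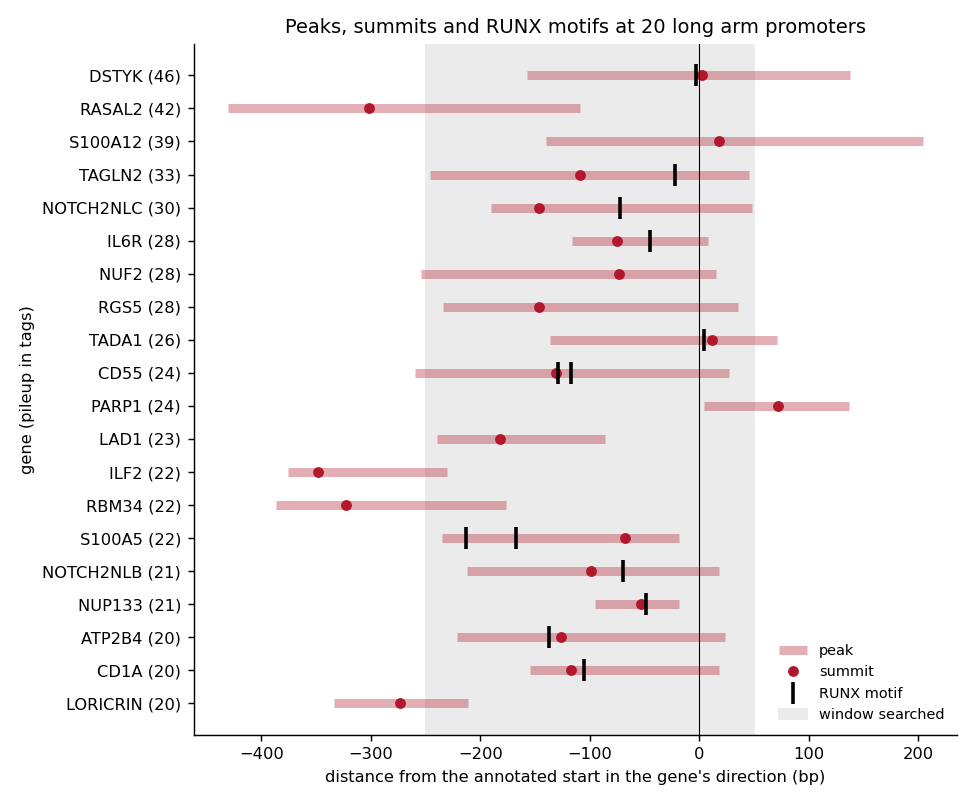
The 20 long arm promoters with the highest pileups (in parentheses, in tags), with the peak (bar), its summit (circle) and RUNX motifs (ticks) by distance from the annotated start in bp; the shaded window was searched. At CD55, TADA1, NUP133, DSTYK and ATP2B4 a motif lies within 10 bp of the summit. None was found in the windows of S100A12, NUF2, RGS5, LAD1, RASAL2, PARP1, ILF2, RBM34 and LORICRIN.

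Where a window held a summit and a motif, they lay close. This was so for 19 windows, with a median of 26.5 bp from the summit to the nearest motif, at most 50 bp in 15 and at most 100 bp in all 19. At DSTYK the distance was 2.5 bp, at CD55, a complement regulator, 4.5 bp, at TADA1, a subunit of a histone acetyltransferase complex, 5.5 bp, and at NUP133, a nucleoporin, 6.5 bp. At IVL it was 6.5 bp with the motif TGTGGT, at ATP2B4, a calcium pump, 8.5 bp, and at RABGAP1L 11.5 bp. In the sequences printed above these are the capital letters, with DSTYK, TADA1, IL6R, ATP2B4 and RABGAP1L holding TGCGGT on either strand, NUP133 and IVL holding TGTGGT, and CD55 holding both. Pileups were 46 tags (33.7 to 61.4) at DSTYK, 28 (18.6 to 40.5) at IL6R and 26 (17.0 to 38.1) at TADA1. CD55 had 24 tags (15.4 to 35.7) and IVL 19 (11.4 to 29.7). Among these, only the intervals of DSTYK and IVL did not overlap.

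The other promoters with high pileups were RASAL2, a Ras regulator, with 42 tags and its summit outside the window, S100A12 with 39, and TAGLN2, an actin-binding protein, with 33 and a motif 89.5 bp from the summit. NUF2 and RGS5, which lie head to head, shared a peak of 28 tags with no motif in either window. A window without the letters says only that they are not in it.

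A family of copied promoters crossed both arms. NOTCH2NLA, NOTCH2NLB and NOTCH2NLC, human copies of the start of NOTCH2, each had a peak at the promoter, with 20 tags (12.2 to 30.9), 21 tags and 30 tags (20.2 to 42.8). NOTCH2 itself, on the short arm, had 21 tags at chr1:120069587-120069847. The intervals of the 4 peaks overlapped. Lined up without gaps, the NOTCH2 window matched that of NOTCH2NLA at 284 of 285 bases and that of NOTCH2NLB at 267 of 268, so reads may be shared among these 3 promoters. The match of NOTCH2 to NOTCH2NLC was lower, 240 of 266 bases, but an ungapped match is lowered by any gap. The stretch at the NOTCH2NLC summit shares a long identical run of bases with that of NOTCH2NLB. Its reads may therefore be shared as well. All 4 windows held a RUNX motif. The stretches around the summits of NOTCH2NLA and NOTCH2NLB show the same motif.
NOTCH2NLA, minus strand, chr1:146229048-146229148: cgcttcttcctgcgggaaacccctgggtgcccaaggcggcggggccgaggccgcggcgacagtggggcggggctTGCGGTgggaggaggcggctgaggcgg
NOTCH2NLB, minus strand, chr1:148679795-148679895: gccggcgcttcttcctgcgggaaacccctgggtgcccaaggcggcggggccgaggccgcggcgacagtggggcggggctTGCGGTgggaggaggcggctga

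A further set of peaks lay at genes of noncoding RNAs. The long arm carries the array of 5S ribosomal RNA genes, transcribed by RNA polymerase III, with 17 annotated copies between 228610266 and 228646158 whose starts lie a median of 2241 bp apart. A summit lay within 1 kb of 15 of the 17 genes (88.2%, 65.7 to 96.7). Over the genome the share of rRNA genes, these included, was 57.1%. It was 1 of 16 on the short arm and 12 of 16 (75%, 50.5 to 89.8) on other chromosomes, whose interval overlaps that of the long arm. In the long arm array 14 summits were inside the gene. Pileups ran from 33 to 48 tags, which is high for the arm, but fold enrichment only from 2.11 to 4.43. The input level at these 15 peaks was 4.33 to 7.93 times the background. They made up 15 of the 42 long arm peaks with an input level of at least 3.

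Transfer RNA genes had a summit within 1 kb at 30 of 70 copies (42.9%, 31.9 to 54.5), from 24 peaks. Over the genome the share was 35.4%, and on the short arm it was 0 of 28, which allows up to 12.1% by the Wilson interval. A repeated unit at about 161 Mb, with TRE-CTC1 and TRG-TCC2 copies side by side, had 4 peaks of 40, 46, 42 and 33 tags at input levels of 7.93, 6.24, 5.84 and 6.26. Other tRNA genes stood on a lower input: TRH-GTG1-1 had 25 tags over a level of 1.34 with a fold of 6.59, and TRN-GTT24-1 had 29 tags over 1.64 with a fold of 6.52. Both kinds of tRNA site were therefore present.

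Genes of small nuclear RNAs had a summit within 1 kb at 10 of 22 (45.5%, 26.9 to 65.3), against 5 of 18 on the short arm and 19.5% over the genome. Of these 10, 9 were RNVU1 genes, variants of the U1 spliceosomal RNA, of which the arm has 15. Their peaks had 19 to 28 tags, folds of 3.38 to 6.001 and input levels of 1.25 to 2.504. Peaks at rRNA, tRNA and snRNA genes numbered 50, or 6.02% of the long arm peaks, against 6 (0.858%) on the short arm. Without them the ratio of densities per Mb was 1.29 (1.16 to 1.43), against 1.36 with them. These genes include families of near-identical copies, such as the 5S rRNA array. How reads that fit several copies were placed is not given in the sources used here.

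A summit lay within 5 kb of 8 of the 72 microRNA genes (11.1%, 5.74 to 20.4), where the share over the genome was 6.90%. They were MIR6736, MIR4258, MIR92B, MIR4654, MIR4424, MIR6769B, MIR29C and MIR29B2, and pileups ran from 15 to 33 tags. The strongest, 33 tags with a fold of 8.37, lay 4.49 kb from MIR4654. MIR29C and MIR29B2, which lie in 1 cluster, shared a peak of 15 tags (8.40 to 24.7) at 2.68 and 3.27 kb, which is also the peak counted for CD46. A second peak within 5 kb of MIR29B2, at chr1:207806989-207807129 in its host gene MIR29B2CHG, had 26 tags (17.0 to 38.1) and a fold of 6.65. The peaks at MIR92B and MIR4258 are likewise those counted for MUC1 and for CKS1B. The mature forms of these are printed with the seed, bases 2 to 8, in capitals because both share it (RefSeq, GRCh38.p14, minus strand).
hsa-miR-29b-3p: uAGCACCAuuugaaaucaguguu
hsa-miR-29c-3p: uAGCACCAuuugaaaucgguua

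The highest input level of the arm was found at chr1:224014851-224014924, inside the pseudogene SEPTIN7P13. The input level there was 14.2 times the background and the pileup 67 tags, more than at all but 2 of the 20 strongest peaks, yet the fold enrichment was 2.11, the lowest of the 830 peaks. By pileup alone this site thus stood among the strongest peaks of the arm, below those near IER5 and in GUK1, and by fold enrichment it stood last.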

How the data were processed

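The authors deposited 1 peak list, made with MACS 2.1.2 from the RUNX1 ChIP library against input. Per the file headers, 54 bp tags were extended to 74 bp, 1 tag per position and strand was kept, and the local background used windows of 1 and 10 kb. The deposited pileup is a signal in tags, the deposited fold enrichment a ratio, and the deposited p and q values are −log10 values. Bowtie2 and hg38 are named in the submitters' processing notes. Multiple mapping is not given in the sources used here. The ChIP library had 89501295 tags and the input library 94686274.

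The input level was computed from pileup and fold enrichment. Genes, promoters and miRNAs came from RefSeq tables (GRCh38.p14), with 22198 promoter windows for 15842 of 20052 coding genes. Shares carry Wilson, pileups Poisson and ratios Clopper-Pearson 95% intervals (Python, SciPy), for counting error only. Of these, the ratio intervals alone were checked on simulated data. Groups came from the labels. Members and lists (209 genes) were chosen with earlier results of these data known. Named were genes at the 20 peaks with the highest −log10 q, the 5 genes with most peaks, up to 8 members a list and 8 promoters by pileup. Others were named after their values were seen. Some list members that the rule names are not reported here.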

Additional observations from a re-analysis of the deposited data

How the results depend on the processing

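Of 30 alternatives over 6 results, 14 counted as the same as the reported value, 13 moved and 3 reversed. Same meant inside the interval of the reported value, except that the number of peaks was allowed a wider margin. Reversed meant that a ratio fell on the other side of 1, whatever its interval. With peaks within 1 kb merged, 772 long arm peaks remained, just below the interval of 774 to 888, and this counted as the same. No paired analysis was possible because no library here has a replicate. With a fold enrichment of at least 5, 357 long arm peaks remained, the ratio per Mb was 1.09 and per coding gene 1.06, 16.8% of coding genes had a peak and 5.88% of summits lay near a start. At a fold of at least 8 the ratios were 1.01 per Mb and, reversed, 0.986 per gene (0.699 to 1.39). With pileups scaled by input, and the minimum set from the short arm, they were 1.06 and 1.03. Under that limit 23.02% of long arm genes had a peak (20.5 to 25.8), against 24.7% on the short arm (22.3 to 27.4). These intervals overlapped, so no order of the arms is shown. With the pileup at least 8 times the input level, chosen after seeing the data, both ratios reversed. They were 0.828 (0.674 to 1.02) per Mb and 0.807 (0.657 to 0.990) per gene. The share of genes was 22.5% for the gene body alone and 64.2% with 50 kb on either side. Within 500 bp of a start lay 6.02% of summits. TGTGGT alone stood in 25% of the promoters with a peak, against 11.3% of all windows. The cause of the changes was not tested. The lack of replicates limits every value, and the pileups, with quartiles of 18 and 27 tags, limit the precision of a single peak.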
